A study of Mus musculus with 18 samples.

Results

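The genes described here are the Fc receptors for immunoglobulin G and the signalling proteins they work with in the mouse heart: Fcgr1, Fcgr2b, Fcgr3, Fcer1g, Tyrobp and Syk. They were chosen by gene symbol in the array's platform annotation. All 6 were found among the 8251 genes that the annotation names with a single symbol, on 9 probe sets. A probe set is the group of short oligonucleotides that reads out a transcript on an Affymetrix array. Total RNA of mouse hearts was measured on U74Av2 arrays. The groups were TNFTG hearts of 3 weeks (3 female and 3 male arrays), TNFTG male hearts of 13 weeks (3 arrays), TNFTG female hearts of 40 weeks (3 arrays) and FVB hearts of 3 weeks (2 female and 3 male arrays). The labels describe TNFTG mice as carrying a transgene for tumour necrosis factor alpha that is specific to the heart, and FVB is an inbred mouse strain. Neither the promoter that drives the transgene nor the strain that carries it is named in the labels. FVB hearts of 13 and 40 weeks were not analysed here, and the later TNFTG groups differ from each other in sex. Nothing in the labels ties arrays to animals. A p-value here therefore reflects the scatter between arrays, part of which may be technical.

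Fc receptors bind the constant part of antibodies and so let cells of the immune system respond to antibody-coated particles. Fcgr1 (the high-affinity receptor) and Fcgr3 are activating receptors. They carry no signalling motif of their own in the mouse and pass the signal through Fcer1g, the Fc receptor gamma chain, whose cytoplasmic tail holds an immunoreceptor tyrosine-based activation motif (ITAM). Tyrobp, also called DAP12, is a second ITAM adaptor, which serves receptors such as Trem2 rather than the Fc receptors. Syk is the tyrosine kinase that docks on phosphorylated ITAMs. Fcgr2b is the inhibitory receptor of the family, and its tail holds an inhibitory motif (ITIM) that recruits phosphatases. In mice these genes are expressed mainly in macrophages, neutrophils, mast cells, dendritic cells and, for Fcgr2b and Syk, B cells.

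Fcgr2b, Fcgr3 and Fcer1g lie on chromosome 1 and Fcgr1 on chromosome 3. RefSeq windows from 250 bases before to 50 bases after an annotated start (build GRCm38.p6) matched 5 of the 6 genes, all but Tyrobp. A window each of the inhibitory receptor, of the activating receptors and of their shared chain is shown, since the signals of these genes parted in the comparison below. All lie on the minus strand and are written 5′ to 3′ along the gene. Capitals mark GAGGAA on either strand (TTCCTC on the other strand), a core bound by PU.1-type ETS factors of myeloid cells, and TTCNNNGAA, the form of the interferon-gamma-activated site bound by STAT factors.
Fcgr2b (chr1:170976022-170976321): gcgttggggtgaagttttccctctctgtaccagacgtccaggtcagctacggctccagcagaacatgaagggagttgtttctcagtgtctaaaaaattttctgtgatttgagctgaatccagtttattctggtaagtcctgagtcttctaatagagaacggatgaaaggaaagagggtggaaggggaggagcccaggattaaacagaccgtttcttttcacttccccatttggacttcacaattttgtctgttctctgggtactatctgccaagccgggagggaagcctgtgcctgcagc
Fcer1g (chr1:171234300-171234599): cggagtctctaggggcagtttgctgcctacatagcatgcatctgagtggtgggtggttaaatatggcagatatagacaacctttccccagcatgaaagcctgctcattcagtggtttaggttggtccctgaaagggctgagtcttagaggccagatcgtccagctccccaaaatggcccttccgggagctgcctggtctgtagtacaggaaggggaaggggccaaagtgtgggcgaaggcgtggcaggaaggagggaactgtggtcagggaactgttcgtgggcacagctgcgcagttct
Fcgr3 (chr1:171059354-171059653): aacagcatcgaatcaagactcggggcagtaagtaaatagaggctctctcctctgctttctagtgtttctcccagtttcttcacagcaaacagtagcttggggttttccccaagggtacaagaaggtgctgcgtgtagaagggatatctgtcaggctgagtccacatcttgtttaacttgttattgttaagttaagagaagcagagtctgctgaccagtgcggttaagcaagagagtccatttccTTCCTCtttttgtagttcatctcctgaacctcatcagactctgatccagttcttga
Fcgr1 (chr3:96293920-96294219): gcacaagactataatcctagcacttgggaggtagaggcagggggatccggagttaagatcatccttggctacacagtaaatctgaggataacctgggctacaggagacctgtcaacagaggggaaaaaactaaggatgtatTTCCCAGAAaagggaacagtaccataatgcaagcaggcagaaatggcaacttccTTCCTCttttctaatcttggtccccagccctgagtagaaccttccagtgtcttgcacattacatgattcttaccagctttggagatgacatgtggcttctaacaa

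Neither motif occurred in the Fcgr2b or the Fcer1g window. The Fcgr3 window shown held TTCCTC with its first base at position -6 from its start. A second Fcgr3 window (chr1:171059345-171059644), which is not shown, held the same match at -15 from its start. The Fcgr1 window held TTCCTC at -55 and TTCCCAGAA at -109, and these matches do not overlap. Syk, which was called higher in the comparison below, also had windows, which are not shown. The window at chr13:52596632-52596931 held GAGGAA at -9, and the window at chr13:52583187-52583486 held neither motif. Among all 32851 windows of 300 bases, GAGGAA occurred in 28.3% and TTCNNNGAA in 8.3%. A match is a description of these letters only, and no match says nothing of what binds there.

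Tnf, the gene of the transgene product, had signals of 5476 to 11343 on the 6 TNFTG arrays of 3 weeks, 7507 to 10842 at 13 weeks and 8774 to 12082 at 40 weeks, against 12.5 to 124.9 on the FVB arrays. Myh6, the main myosin heavy chain of heart muscle, was at 16490 or more on every array, in keeping with heart tissue. The FVB female columns 1 and 2 hold identical values and were counted as 1 array. That array stood apart, with 7.33% of its probe sets under the floor described below, against 23.7% to 28.3% on the others. FVB males 1 and 2 carried Xist, the X-inactivation RNA of females, at 1381 and 2706, against 5.9 on FVB male 3, so their labelled sex is in doubt. The Y-linked genes Eif2s3y and Uty read 298.7 and 129.7 on FVB male 1 and 67.4 and 16.9 on FVB male 2, against 544.9 and 228 on FVB male 3. The ratio of 3′ to 5′ Actb signal, a measure of RNA integrity, was 1.12 to 1.44 in TNFTG hearts of 3 weeks and 1.29 to 1.97 in FVB hearts. Its part in the results was not tested.

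Fcgr2b, the inhibitory receptor, rose in TNFTG hearts of 3 weeks. Its signal was 900, 642 and 925 in TNFTG females and 1014, 1741 and 1082 in TNFTG males of 3 weeks, against 36 and 104 in FVB females and 107, 105 and 107 in FVB males. Every TNFTG array lay above every FVB array, and the lowest TNFTG value was several times the highest FVB value. The means were 1050 ± 370 in TNFTG hearts (SD, n = 6) and 91.6 ± 31.1 in FVB hearts (SD, n = 5). Signals below 44.675, the 25th percentile of all values, were raised to that floor before taking log2, and groups were compared with limma over the brightest 60% of probe sets (7453), with Benjamini-Hochberg adjustment. The log2 difference of Fcgr2b was 3.56 (SE 0.23, 95% interval 3.07 to 4.05, limma adjusted p = 5.6e-09), an 11.8-fold rise. The FVB array that stood apart lay at the floor for this gene, and over the 31 alternatives the difference was 2.98 to 3.86, past the threshold in each. Fcgr2b was dim in FVB hearts and passed the filter through its TNFTG arrays, and with no filter its limma adjusted p was 6.7e-07. The probe set is marked as shared by several transcripts, and Fcgr2b and Fcgr3 have closely similar extracellular sequences, so some of its signal could come from Fcgr3. The Fcgr3 probe set itself was dim and outside the 60% tested, and the part of such shared signal was not tested. Without the FVB array that stood apart and FVB males 1 and 2, the Fcgr2b difference was 3.25, with no value at the floor. That left only FVB female 3 and FVB male 3, so no scatter between FVB arrays entered the fit.

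Fcgr1, the high-affinity activating receptor, was lower in TNFTG hearts, by a call that depended on 1 array. Its brighter probe set read 126, 107 and 110 in TNFTG females and 128, 117 and 131 in TNFTG males of 3 weeks, against 413 and 164 in FVB females and 159, 123 and 198 in FVB males. The groups overlapped only at FVB male 2. The medians were 121.5 in TNFTG hearts (n = 6) and 163.5 in FVB hearts (n = 5). The groups differed by -0.76 on the log2 scale (SE 0.22, limma adjusted p = 0.0102), a 1.69-fold lower signal. This call rested on the FVB female array at 413: without it the difference was -0.43 and no longer passed the test (limma adjusted p = 0.0861). With FVB males 1 and 2 left out as well it was -0.59, with only FVB female 3 and FVB male 3 left. The second Fcgr1 probe set was under the floor on 16 of 17 arrays and reached 115 on that same FVB female array. The brighter one, like the Fcgr2b probe set, is marked as shared by several transcripts, so its signal may not be that of Fcgr1 alone.

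Fcgr3, the low-affinity activating receptor, was dim in all groups. It read 85.7, 91.5 and 81.8 in TNFTG females and 68.8, 31.9 and 94.3 in TNFTG males of 3 weeks, against 143.5 and 72 in FVB females and 116, 95.1 and 131 in FVB males. The groups overlapped, and the means were 75.7 ± 23.2 in TNFTG hearts (SD, n = 6) and 112 ± 28.5 in FVB hearts (SD, n = 5). Its mean signal ranked at 65.4% of all probe sets from the brightest, outside the 60% tested. With no filter on dim probe sets its log2 difference was -0.50 (SE 0.24, limma adjusted p = 0.138).

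Fcer1g, the gamma chain that both activating receptors need, is read by a dim pair of probe sets, of which the dimmer gave almost no reading. The brighter one read 124, 136 and 173 in TNFTG females and 155, 267 and 64.2 in TNFTG males of 3 weeks, against 91.7 and 7.6 in FVB females and 11.9, 13.9 and 12.6 in FVB males. All but 1 FVB array lay under the floor, while no TNFTG array did, and TNFTG male 3 overlapped with the FVB female array that stood apart. This probe set ranked at 63.0% and was also outside the 60% tested. With no filter it differed by 1.40 on the log2 scale (SE 0.32, limma adjusted p = 0.0060). Its size was set by the floor, to which 4 of 5 FVB values were raised, and it was 0.44 with the floor at the 40th percentile. The other probe set lay under the floor on 11 of 17 arrays, among them 4 of 6 TNFTG arrays of 3 weeks and 4 of 5 FVB arrays. Its difference of 0.02 (SE 0.10, limma adjusted p = 0.929 with no filter) was thus largely set by the floor. It can neither bear out nor contradict the brighter one. The brighter probe set is marked as reading a family of similar sequences, so the call is uncertain.

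Tyrobp, the second ITAM adaptor, rose as well, and its signal was above the floor on every array. Its signal was 2793, 2725 and 3188 in TNFTG females and 2876, 4269 and 2725 in TNFTG males of 3 weeks, against 275 and 277 in FVB females and 296, 537 and 288 in FVB males. The groups did not overlap, with TNFTG male 2 and FVB male 2 the highest of their groups. The means were 3096 ± 600 in TNFTG hearts (SD, n = 6) and 335 ± 113 in FVB hearts (SD, n = 5). The log2 difference of Tyrobp was 3.28 (SE 0.18, 95% interval 2.90 to 3.65, limma adjusted p = 6.3e-10), a 9.71-fold rise. Without the 3 doubted FVB arrays it was 3.43.

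Syk, the kinase that both adaptors share, rose by a smaller amount. Its brighter probe set read 1608, 1350 and 1529 in TNFTG females and 1910, 1467 and 1802 in TNFTG males of 3 weeks, against 1465 and 979 in FVB females and 982, 927 and 894 in FVB males. The only overlap came from the FVB female array that stood apart. The means were 1611 ± 211 in TNFTG hearts (SD, n = 6) and 1049 ± 235 in FVB hearts (SD, n = 5). Syk differed by 0.60 on the log2 scale (SE 0.15, 95% interval 0.28 to 0.92, limma adjusted p = 0.0043), a 1.51-fold rise. The difference was 0.77 without the 3 doubted FVB arrays. The second Syk probe set was under the floor on 16 of 17 arrays and gave no reading.

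**Figure D1:**
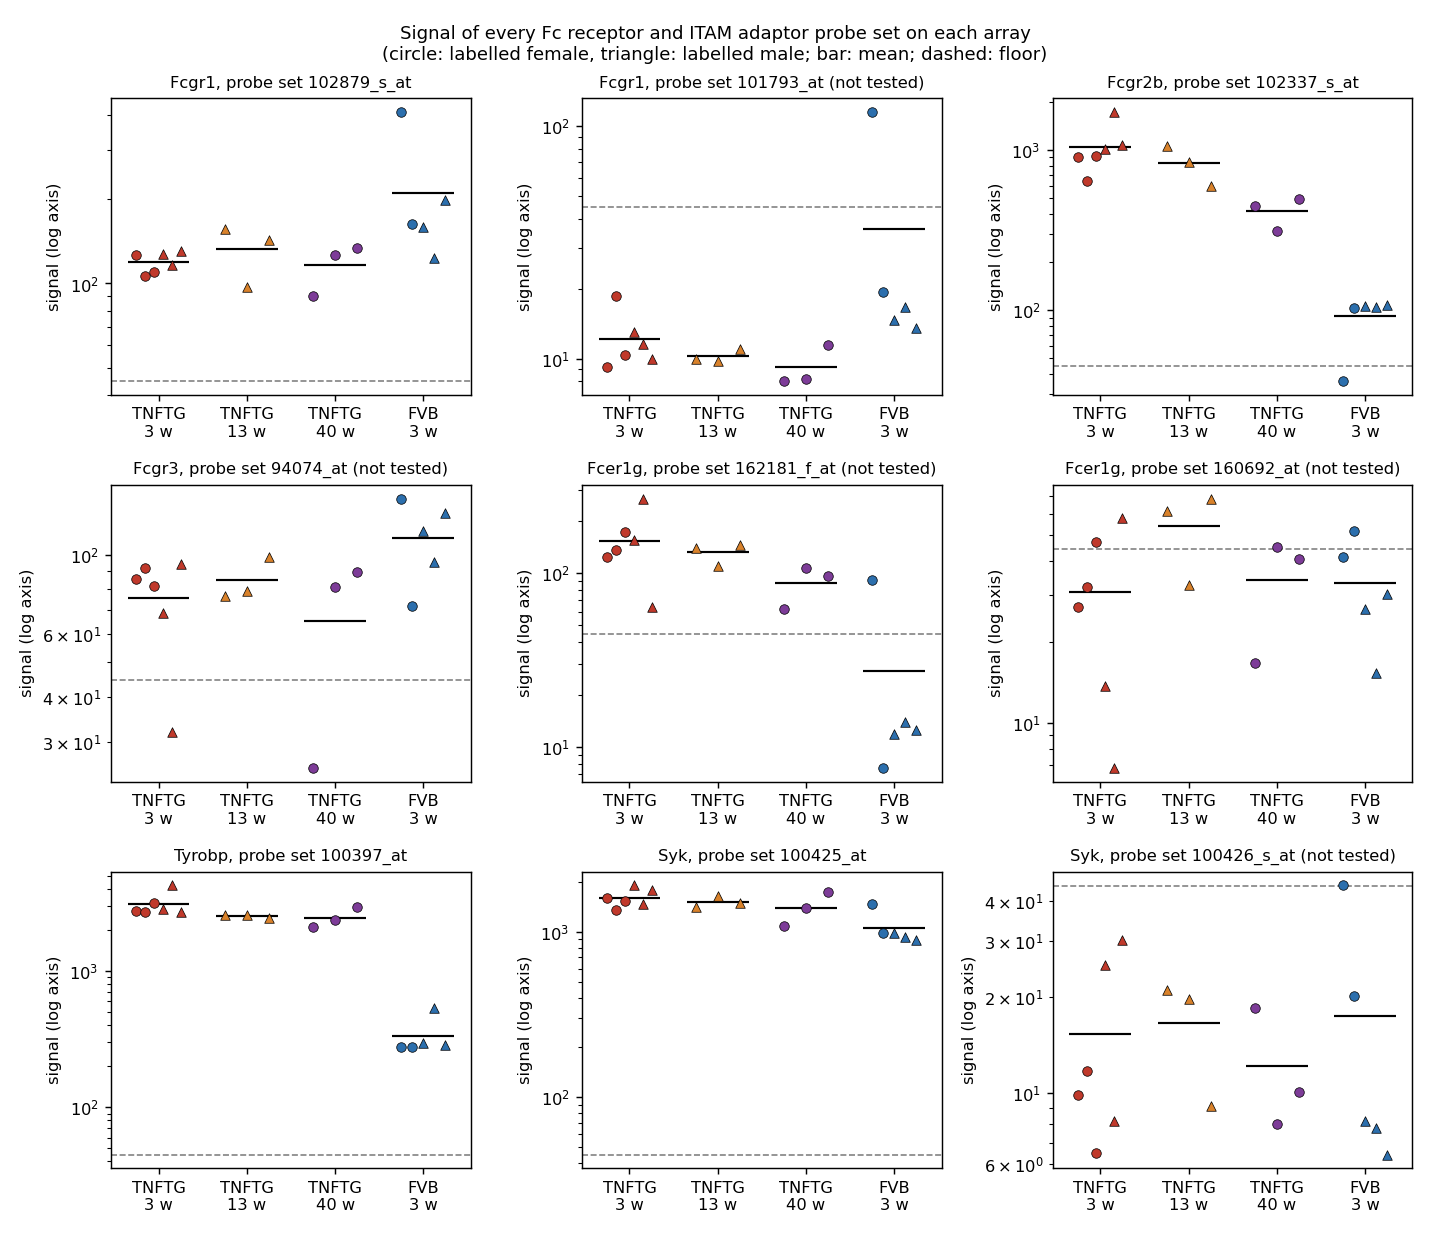
Signal of all 9 probe sets on every array (log axes), by group, with circles for labelled females, triangles for labelled males, bars at group means and a dashed line at the floor of 44.675. Fcgr2b and Tyrobp separate all TNFTG arrays from all FVB arrays, while Fcgr3 overlaps and the FVB female array at 413 stands out for Fcgr1.

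Of the 4 genes tested, 3 rose (Fcgr2b, Tyrobp and Syk) and Fcgr1 was lower. Over all 7453 probe sets tested, 24.7% were called higher and 21.9% lower at 3 weeks, so a call alone is common in these hearts. The median log2 difference over all tested probe sets was -0.01 and the median size of a difference was 0.44. Over all 12422 probe sets with no filter, 15.2% were called higher and 16.4% lower, and there Fcer1g joined the genes called higher.

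**Figure D2:**
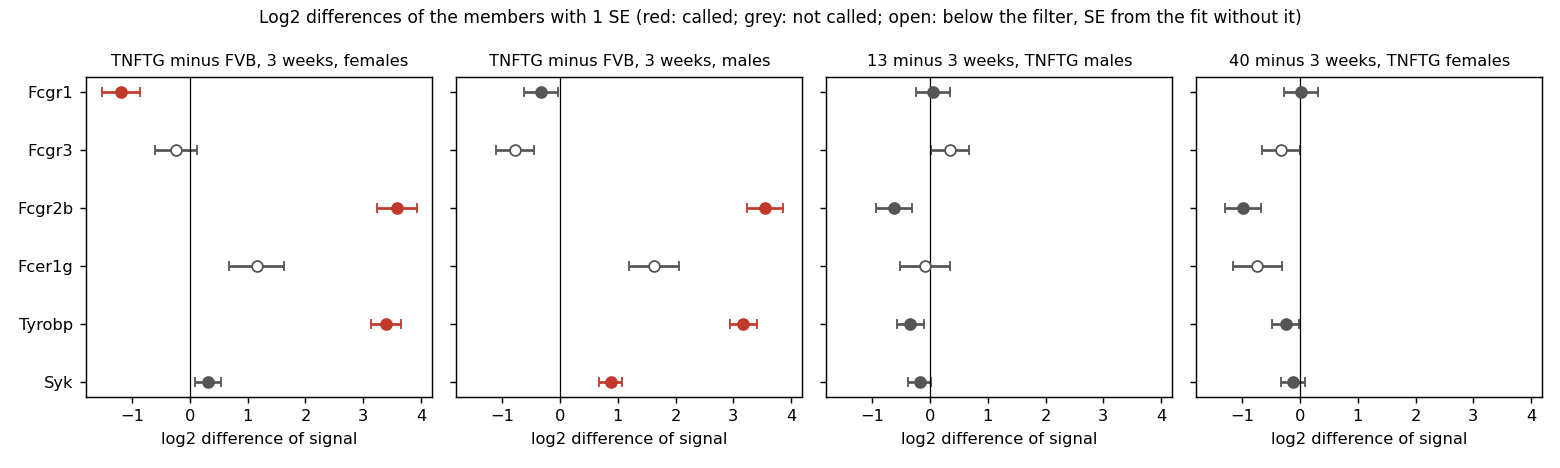
Log2 difference of each gene between TNFTG and FVB hearts of 3 weeks, in females and in males, and between later and 3-week TNFTG hearts, with bars of 1 SE. Red points were called, grey ones were not, and open ones were outside the brightest 60%. Fcgr2b lies at 3.58 in females and 3.55 in males, and the age differences lie between -0.98 and 0.35.

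A difference within an array is not touched by a scaling factor of that array, unless a signal lies at the floor. Pairs of genes were therefore also compared as the log2 difference of their signals on the same array. Such a difference has no meaning as a level, since probe sets respond differently, but its change between groups shows whether 2 genes changed unequally. Fcgr1 minus Fcgr2b was -3.07 ± 0.44 in TNFTG hearts of 3 weeks (SD, n = 6) and 1.11 ± 1.19 in FVB hearts (SD, n = 5). The change was -4.18 and the groups did not overlap (two-sided exact permutation p = 0.0022, the smallest these arrays can give, and 0.0029 after Benjamini-Hochberg adjustment over 4 pairs). Fcgr3 minus Fcgr2b was -3.73 ± 0.84 in TNFTG hearts and 0.29 ± 0.84 in FVB hearts (SD, n = 6 and 5). This change of -4.02 gave the same exact permutation p. Both activating receptors therefore changed unequally with the inhibitory one on these probe sets. Since Fcgr2b alone separated the groups, both tests follow largely from its rise and are no separate support for it. Fcgr3 was dim, with 1 of its TNFTG values of 3 weeks at the floor. Fcgr2b was at the floor on the FVB female array that stood apart. Tyrobp minus Fcer1g differed by 1.80 (exact permutation p = 0.0022), but 4 of 5 FVB values of Fcer1g were at the floor, so this cannot be read as an unequal change. Syk minus Fcer1g differed by -0.81 (exact permutation p = 0.0541, also 0.0541 adjusted), which missed the threshold and has the same limit. Without the FVB female array that stood apart, Fcgr1 minus Fcgr2b and Fcgr3 minus Fcgr2b were -3.66 and -3.69 (adjusted p = 0.0063 each, exact permutation).

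**Figure D3:**
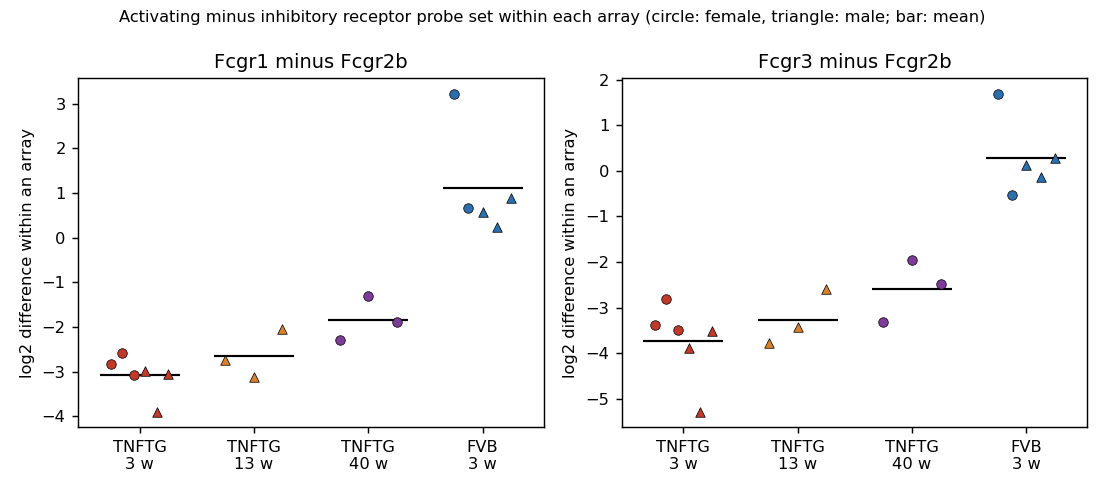
Log2 signal of an activating receptor minus that of Fcgr2b on each array, by group, with circles for labelled females, triangles for labelled males and bars at group means. TNFTG arrays of 3 weeks lie near -3.07 for Fcgr1 and -3.73 for Fcgr3, and the FVB arrays near 1.11 and 0.29. The zero of the axis has no meaning.

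In females alone, Fcgr2b (3.58, SE 0.34) and Tyrobp (3.39, SE 0.26) rose, where 19.4% of all probe sets were called higher and 15.3% lower. Fcgr1 was called lower in females (-1.19, SE 0.33, limma adjusted p = 0.0119), with 2 FVB arrays of which 1 is the array at 413, and the call was lost without it. Syk gave 0.32 in females (SE 0.22, limma adjusted p = 0.283), which was 0.61 without the FVB female array that stood apart and 0.03 without the other FVB female array. In males alone, Fcgr2b (3.55, SE 0.31), Tyrobp (3.17, SE 0.24) and Syk (0.88, SE 0.20, limma adjusted p = 0.0033) rose, where 16.9% were called higher and 12.8% lower. Fcgr1 gave -0.33 in males (SE 0.29, limma adjusted p = 0.438). The test of the sex difference itself called none of the 4 genes and 0% of all probe sets (limma, 1228 of 7453 at an unadjusted p under 0.05). For Syk the female minus male difference was -0.56 (95% interval -1.20 to 0.08). The labelled sex of FVB males 1 and 2 is in doubt, as given above.

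With age, no gene of the family passed the test, and Fcgr2b had the largest difference of the 4 tested. In TNFTG females of 40 weeks it read 446, 314 and 496, against 900, 642 and 925 in TNFTG females of 3 weeks. The groups did not overlap, and the log2 difference was -0.98 (SE 0.31, 95% interval -1.63 to -0.33). It missed the threshold over all probe sets (limma adjusted p = 0.243, unadjusted p = 0.0058), and of 31 alternatives it passed only when arrays were weighted by their quality (-1.31, limma adjusted p = 0.00059). In TNFTG males of 13 weeks Fcgr2b read 1056, 847 and 594, against 1014, 1741 and 1082 in TNFTG males of 3 weeks, a difference of -0.62 (SE 0.31, limma adjusted p = 0.631). Those groups overlapped.

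Tyrobp stayed far above the FVB signal at the later ages. It read 2606, 2577 and 2463 in TNFTG males of 13 weeks and 2106, 2364 and 2949 in TNFTG females of 40 weeks, all above the highest FVB array at 3 weeks. Its log2 difference was -0.34 (SE 0.24) from 3 to 13 weeks and -0.24 (SE 0.24) from 3 to 40 weeks, with limma adjusted p of 0.815 and 0.850. Syk differed by -0.18 and -0.12 and Fcgr1 by 0.05 and 0.02 over the same intervals, and none passed the test. Fcer1g, untested, read 140, 110 and 145 at 13 weeks and 62.1, 107 and 95.7 at 40 weeks. Fcgr3, also untested, read 76.6, 79.3 and 98.4 at 13 weeks and 25.3, 81.3 and 89.3 at 40 weeks.

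No gene of the family was called by limma in either age comparison, where 0.523% of all probe sets were called at 13 weeks and 0.671% at 40 weeks. Of the 4 tested, none at 13 weeks and 1 at 40 weeks (Fcgr2b) had an unadjusted p under 0.05. The difference between the age changes was called for 0% of probe sets (214 at an unadjusted p under 0.05) and for none of the family, and it mixes age with sex. Fcgr1 minus Fcgr2b was -2.64 ± 0.54 at 13 weeks and -1.84 ± 0.50 at 40 weeks (SD, n = 3 each). With 3 arrays against 3 an exact test cannot go below p = 0.10, so these are given as values.

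Genes that work with the family are given by list at 3 weeks. These lists, and the marker lists further below, were chosen with earlier results of these data known. Their counts are therefore descriptions and no separate support. Many are dim in FVB hearts and pass the brightness filter only through the TNFTG arrays, so counts and medians of a list cover all of its genes on the array, from the fit with no filter. In that fit 15.2% of probe sets were called higher and 16.4% lower, with a median log2 difference of -0.13. Named genes have the values of that fit as well unless said otherwise. Where an FVB array lay at the floor, the size of a difference depends on the floor. This was so on 4 of 5 FVB arrays for Clec4d, Klrd1 and Cd3e, on 3 for Cd79b and Zap70 and on 2 for Cd3g, Blnk, Ptpn6 and Ptpn22.

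Of 6 other ITAM chains, which belong to lymphocyte receptors, 4 were called higher and none lower (median 1.42). Cd3e, a T cell receptor chain, differed by 2.17 (limma adjusted p = 0.0239) and Cd79b, a B cell receptor chain, by 1.44 (limma adjusted p = 0.0224). Cd3g gave 1.40 (limma adjusted p = 0.0042), while Cd79a, the partner of Cd79b, gave -0.24 and was not called. Of 5 receptors that pair with Fcer1g or Tyrobp, 3 were called higher and none lower (median 1.86). Clec4d, a C-type lectin of macrophages, differed by 4.43 (limma adjusted p = 2.1e-08). Klrd1, a chain of natural killer cell receptors, differed by 2.05 (limma adjusted p = 1.2e-05). Of 7 Fc receptors outside the family, none was called (median -0.16). Pigr, which carries polymeric antibodies across epithelia, gave -0.50 and passed in the filtered fit (limma adjusted p = 0.0475), a call kept in 11 of 30 alternatives. Trim21, a cytosolic antibody receptor, gave 0.17.

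Of 6 Src and Syk family kinases, which phosphorylate ITAMs or dock on them, 3 were called higher and none lower (median 0.34). Zap70, the relative of Syk in T cells, differed by 2.73 (limma adjusted p = 1.7e-05), beside 0.60 for Syk. Fgr, a Src family kinase of myeloid cells, differed by 0.96 and Fyn by 0.82, while Src gave -0.67 and was not called. Of 25 signalling proteins that act after Syk, 17 were called higher and 1 lower (median 1.27). Prkcd and Prkcb, which are protein kinases C, differed by 1.84 and 2.20. Sh3bp2 and Blnk, which are adaptors, differed by 1.59 and 2.85. The gene called lower was Pik3r1, a regulatory subunit of PI3 kinase (-0.96, limma adjusted p = 0.0257), named after its value was seen.

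Of 20 ITIM receptors and the phosphatases and adaptors they work with, 13 were called higher and 2 lower (median 1.10). Ptpn6, the phosphatase SHP-1, differed by 2.83 (limma adjusted p = 6.6e-08), and Sirpa, an ITIM receptor of macrophages, by 3.02 (limma adjusted p = 3.1e-06). Ptpn22, a phosphatase of Src family kinases, differed by 2.87 and Pag1, an adaptor for the inhibitory kinase Csk, by 1.80. The genes called lower with no filter, named after their values were seen, were Ceacam1 (-0.59) and the phosphatase Ptpn11 (-0.29, with 3 of 5 FVB arrays at the floor). Pecam1, also named after its value was seen, gave -1.16. It was called lower in the filtered fit (limma adjusted p = 0.0300) but not with no filter (limma adjusted p = 0.0768). Of 6 antibody genes 1 was called higher, Ighm (1.65, limma adjusted p = 0.0020), and 1 lower, Iglc1 (-0.91, limma adjusted p = 0.0277). Iglc1 was named after its value was seen. The later ages were compared in the filtered fit. There Igha, the heavy chain of IgA, was higher by 5.07 at 13 weeks and 6.74 at 40 weeks (limma adjusted p = 6.9e-07 and 1.9e-08). Igha was at the floor on 2 of 6 TNFTG arrays of 3 weeks. Jchain, which joins IgA units, was higher by 2.79 and 3.74 (limma adjusted p = 0.0028 and 8.3e-05). In the filtered fit none of the other pathway lists had a call at either later age.

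**Figure D4:**
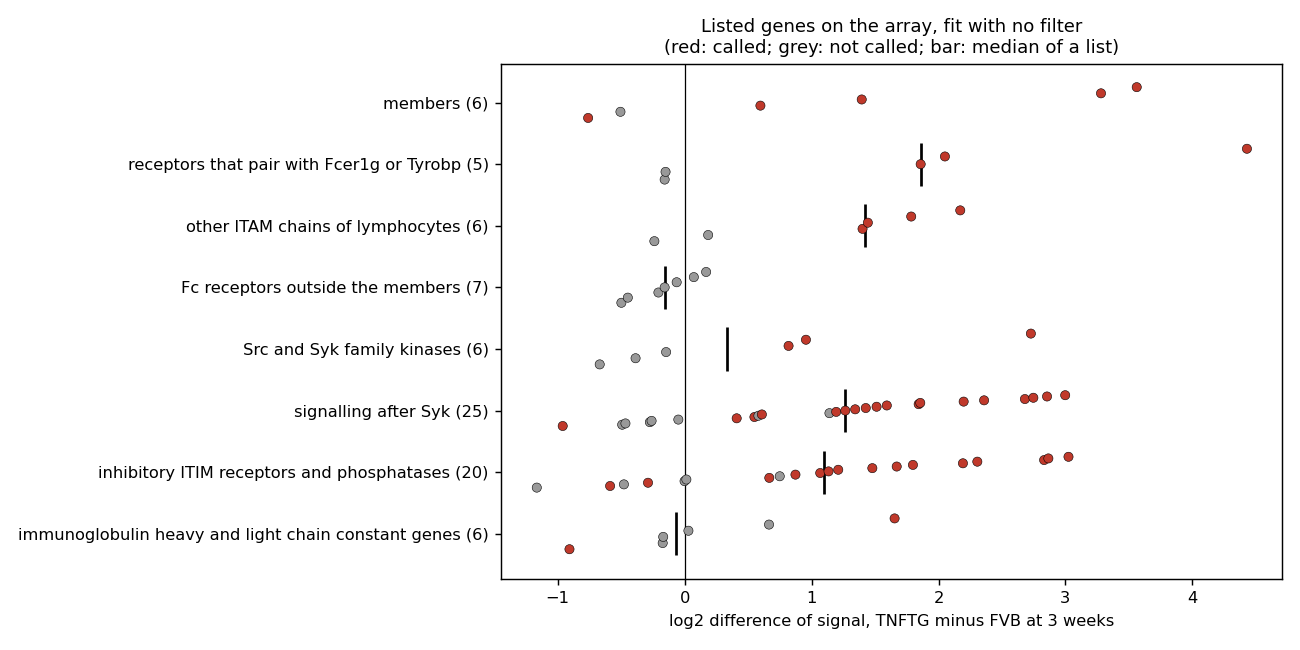
Log2 difference at 3 weeks of each gene on the array in the 7 lists, from the fit with no filter, with the 6 genes of the family on top (points, red where called) and the median of each list (bar). Signalling after Syk and the inhibitory list have medians of 1.27 and 1.10, and the other Fc receptors of -0.16.

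Markers of macrophages, the main cells with these receptors, were higher in the same hearts. Their summed signal over 18 markers was 53125 to 66965 in TNFTG hearts of 3 weeks, 52233 to 69947 at 13 weeks and 53648 to 60677 at 40 weeks, against 8384 to 11783 in FVB hearts. With no filter 16 of the 18 were called higher and none lower (median 2.27), and no marker lay at the floor throughout a group. Cd68, a macrophage lysosomal protein, read 1428 to 2174 in TNFTG hearts of 3 weeks and 975.3 to 1227 at 40 weeks, against 141 to 352 in FVB hearts. In whole heart RNA, more cells of a type and more RNA per cell cannot be told apart. The part of macrophage number in the Fcgr2b and Tyrobp rises was not tested.

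Markers of other cells that could carry the receptors were summed in the same way, with counts from the fit with no filter. The highest FVB sum of the neutrophil, mast cell, B cell, T cell, natural killer, dendritic and platelet lists came from the FVB female array that stood apart, so FVB ranges are also given over the other 4 FVB arrays. Neutrophil markers (12) summed to 1585 to 2390 in TNFTG hearts of 3 weeks and 852 to 4040 in FVB hearts (852 to 1228 without that array), with 3 called higher and 1 lower, and Ngp, Ly6g and Mmp8 at the floor in the TNFTG hearts. Mast cell and basophil markers (12) summed to 906 to 1145 in TNFTG hearts and 672 to 1838 in FVB hearts (672 to 919 without it), with 1 called in each direction. Ms4a2 and Fcer1a, the other chains of the IgE receptor that uses Fcer1g, were at the floor in TNFTG hearts with Mcpt4, Cpa3 and Tpsab1. B cell markers (8) summed to 903 to 1311 in TNFTG hearts and 585 to 2243 in FVB hearts (585 to 922 without it), with 1 called higher and Cr2 at the floor in both. T cell markers (7) summed to 835 to 2064 in TNFTG hearts and 143 to 877 in FVB hearts (143 to 451 without it), with 5 called higher. Natural killer cell markers (6) summed to 391.8 to 1324 in TNFTG hearts and 170 to 645 in FVB hearts (170 to 232 without it), with 2 called higher and Ncr1 at the floor in the TNFTG hearts. Dendritic cell markers (4) summed to 2483 to 3319 in TNFTG hearts and 686 to 1580 in FVB hearts (686 to 849 without it), with 2 called higher. Platelet markers (4) summed to 117 to 223 in TNFTG hearts and 199 to 952 in FVB hearts (199 to 233 without it), with 2 called lower. The dendritic cell sums did not overlap between the groups with or without that array. Without it the neutrophil, T cell and natural killer sums did not overlap either. Cardiomyocyte markers (10) summed to 113545 to 218922 in TNFTG hearts and 205514 to 338480 in FVB hearts, with 9 called lower and 1 higher. The part of each in the results was not tested.

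Across the 12 TNFTG arrays the members did not all vary together. Pearson r of log2 signals was 0.73 between Fcgr2b and Tyrobp (Spearman rho 0.62), 0.74 between Fcer1g and Tyrobp (rho 0.55) and -0.21 between Fcgr2b and Fcgr3 (rho -0.18). The arrays share their scaling and fall into 3 ages, so these are descriptions. Among 5696 other genes, those most like Fcgr2b were Slc11a1, a metal transporter of macrophage phagosomes (r = 0.93), Pla2g7, a secreted phospholipase (r = 0.93), and Atp6v1b2, a proton pump subunit (r = 0.92). Those most like Tyrobp were Was, an actin regulator of blood cells (r = 0.93), Apbb1ip, an adaptor of integrin signalling (r = 0.90), and Rnf4 (r = 0.90). For Syk they were Dda1, Cd7 and Srsf9 (r = 0.91, 0.89 and 0.88), for Fcer1g Orc6, Cetn3 and Rala (r = 0.91, 0.88 and 0.85), and for Fcgr1 Pbx2, Pou2f3 and Cplx2 (r = 0.88, 0.87 and 0.86). For Fcgr3, at the floor on 2 of these arrays, they were Pip5k1a, Dapk2 and Slc7a5 (r = 0.87 each).

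The tested chromosome 1 neighbours of the receptors were lower in TNFTG hearts of 3 weeks or not called. In RefSeq order, Fcgr2b and Fcgr3 are followed by Sdhc, Pcp4l1, Nr1i3 and then Fcer1g, with other genes between that were not tested. Sdhc, a subunit of mitochondrial complex II, differed by -0.69 (limma adjusted p = 0.00051), Pcp4l1 by -0.79 (limma adjusted p = 0.0099) and Nr1i3, a nuclear receptor, by -0.72 (limma adjusted p = 0.0077). Pcp4l1 had 2 tested probe sets and Nr1i3 had 3. Only the one of highest mean deposited signal is given for each. B4galt3, a galactosyltransferase gene on the far side of Fcer1g, gave -0.01 (limma adjusted p = 0.980).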

How the data were processed

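Each heart sample has its own column of values. The deposited table holds intensity per probe set, linear and evenly scaled between arrays by the authors (trimmed means of 499.2 to 499.9). How it was made is not given in the sources used. Of 18 columns, 2 hold identical values and were counted as 1, which left 17 arrays in 6 groups taken from the titles. The number of arrays limits the precision.

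Intensities were raised to a floor at the 25th percentile of the table (44.675) before log2. Of 12422 probe sets (66 controls left out), the brightest 60% (7453) were tested in R 4.3.3 by limma 3.58.1 (two-sided moderated tests, lmFit then eBayes, 1 fit of 6 group means, 11 residual degrees of freedom), with Benjamini-Hochberg adjusted p called at 0.05. For the genotype comparison, female and male differences had equal weight. Intervals are at 95%. Pairs of genes were compared with exact permutation tests over arrays. The fit was tested on simulated data. Probe sets with 1 symbol numbered 10833, with several 396 and with none 1193. Where a gene has several probe sets, that of highest mean log2 signal stands for it. For the chromosome 1 neighbours it is the tested probe set of highest mean deposited signal.

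All members are given. Of each list, up to 4 genes of smallest p at 3 weeks in the filtered fit are named (2 at later ages). Of likeness, the 3 genes of highest Pearson r over the TNFTG arrays are named. The members and lists were chosen with earlier results of these data known. Alternatives were other scalings, floors, filters, variance models, groupings of samples and left-out arrays. Replicate numbers were not used as pairs. Over 11 same-numbered pairs, the correlation of deviations was -0.19 to 0.24, and over 0.1 in 5 of them. Differently numbered pairs were not compared, so this does not show whether same-numbered arrays are linked.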

Additional observations from a re-analysis of the deposited data

Results flagged for a closer look

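Within groups of 5 or 6 arrays, 9 of 18 combinations of probe set and group held an array far from the others by Dixon's 95% limit. The limit was applied to log2 values raised to the floor, while the signals below are as deposited. Where all other arrays of a group lay at the floor, any value above it passed. In FVB hearts this was so for the second Fcgr1 and Syk probe sets and both Fcer1g probe sets. The count of 9 therefore cannot be set against a chance rate. Of these, 5 fell on the FVB female array deposited under 2 names. On it the second Fcgr1 probe set read 115.2 (13.6 to 19.4 on the other FVB arrays), Fcgr2b 36 (103.6 to 107.2), Fcer1g 91.7 (7.6 to 13.9), Syk 1464.7 (894.1 to 982.2) and the second Syk probe set 44.8 (6.4 to 20.1). Tyrobp read 4268.5 on TNFTG male 2 of 3 weeks (2724.5 to 3187.7 on the other TNFTG arrays of that age) and 537.3 on FVB male 2 (275.4 to 296.4 on the other FVB arrays). The dimmer Fcer1g probe set read 58 on TNFTG male 3 of 3 weeks (6.8 to 47.1) and 52.1 on FVB female 3 (15.4 to 41.6).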

How the results depend on the processing

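Under 31 alternatives, 17 of them leaving out 1 array each, Fcgr2b, Tyrobp and Syk kept their direction at 3 weeks, and no result named here reversed a call. The number of members called lower at 3 weeks was 0 with the brightest 40% of probe sets and with averaging the probe sets of a gene, where Fcgr1 was not tested, and 0 to 1 when leaving out an array. The Fcgr1 difference was -1.09 to -0.43 when leaving out an array. The number called lower in females was 0 with the brightest 40%, array weights, only the groups compared, averaged probe sets and without 3 doubted FVB arrays, and 0 to 1 when leaving out an array. The number called lower at 40 weeks was 1 with array weights (Fcgr2b). For the sex difference it was 0 to 1 when leaving out an array, with Fcgr1 called without FVB female 3 (-1.53, limma adjusted p = 0.0127). Syk minus Fcer1g was -1.13 after quantile normalisation (adjusted exact permutation p = 0.0216), -0.91 with a common median, 0.19 with the floor at the 40th percentile, -0.81 with log2 of signal plus 50, and -1.07 to -0.59 when leaving out an array, all against Fcer1g values at the floor on 4 of 5 FVB arrays. With the replicate number as a block, Fcgr2b was 3.57 and 3 members were called higher, and no call of a member changed. Over all probe sets, 1024 were called lower at 3 weeks with array weights, against 1631, and 412 higher and 391 lower at 40 weeks, against 28 and 22. In the lists, the brightest 40% left 10 genes after Syk, 2 ITIM genes and 0 ITAM chains called higher, since fewer were tested, against 17, 9 and 3 in the brightest 60%. The cause of the other changes was not tested. Values near the floor limit what can be said of Fcgr3 and Fcer1g.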
